A study of Homo sapiens with 6 samples.

Results

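Kinesins are the motor proteins that walk along or take apart microtubules, and tubulins are the proteins from which microtubules are built. The genes described here were chosen by symbol alone: every gene of the expression table whose symbol starts with KIF and a digit, or with TUBA, TUBB, TUBG, TUBD or TUBE. That gave 62 of the 16570 genes in the table. They comprise 13 mitotic kinesins, 13 transport kinesins, 10 other kinesins, 8 alpha tubulins, 9 beta tubulins, 4 gamma, delta and epsilon tubulins and 5 gamma-tubulin complex proteins. The last class came in by its prefix TUBG and holds no tubulins, but proteins that bind gamma-tubulin.

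The RNA came from BR cells, a variant of the human triple-negative breast cancer line MDA-MB-231 that was selected for its spread to the brain. BR-shCON cells carry a control vector, described as empty in a legend of the study, and BR-shSPANXB1 cells carry a lentiviral shRNA against SPANXB1, an X-linked cancer-testis gene. Both were stable lines selected with puromycin and kept in the same medium, only 1 shRNA was used, and 3 samples per line were sequenced, so a difference between the lines cannot be told apart from an effect particular to that shRNA or that selection. For its experiments in general the study names separate cell batches as replicates, and the series calls the 3 samples of a line independent. Neither says which batch each RNA sample came from, so p-values measure the spread between these samples, part of which may be technical. For each gene and sample the table gives an estimated count of reads and its FPKM, the level scaled by transcript length and by the fragments mapped.

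Libraries were alike in depth, with 16294462 to 16666167 counts, and SPANXB1 itself fell from an FPKM of 508 ± 59.4 to 247 ± 13.8 (mean ± SD, n = 3 in each group). All 5 markers of a mesenchymal-like breast cancer line were expressed, led by VIM, and of 8 luminal markers ESR1, PGR, GATA3 and CDH1 were under an FPKM of 1 on average, while KRT18 (267), KRT8 (193), EPCAM (8.03) and FOXA1 (4.18) were above it. None of 5 neuron and glia markers reached a mean FPKM of 1, the highest being SYP at 0.493. The endothelial markers CDH5 and VWF and the leukocyte marker PTPRC were also near 0, the endothelial marker PECAM1 was at a mean of 1.05, and CD68, a lysosomal gene counted among the leukocyte markers, was at 72.0.

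A microtubule is a hollow tube of alpha- and beta-tubulin dimers that grows and shrinks at its ends. Gamma-tubulin, held in a ring by the gamma-tubulin complex proteins, starts new microtubules at the centrosome. Mitotic kinesins build the spindle, move and align chromosomes and help to divide the cell, and many of their genes are switched on late in the cell cycle. Transport kinesins carry vesicles, organelles and RNA, mostly outward along microtubules. Human cells hold several alpha- and beta-tubulin genes, called isotypes, whose proteins are very alike and whose use differs between tissues. TUBB3, for instance, is best known from neurons and is also made in many carcinomas.

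The spread of expression among the members was wide. Tubulins were the most abundant, and TUBA1B, the main alpha-tubulin of dividing cells, led all members with FPKM values of 936, 933 and 917 over the BR-shCON samples and 983, 979 and 960 over those with the shRNA. TUBB, the main beta-tubulin of these cells, followed with 864, 864 and 868 across BR-shCON samples, against 858, 861 and 867 after knockdown. The highest kinesin was KIF2C, at a mean of 65.3. At the other end, 18 members had a mean FPKM under 1 and were not tested. Among them, the neuronal motors KIF1A and KIF5A and the kinesins KIF21B and KIF26A were at 0.00 to 0.02 in each sample. TUBB2B lay just under the limit, at a mean FPKM of 0.998. KIF24, at a mean of 3.12, was the lowest member that was tested.

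**Figure D1:**
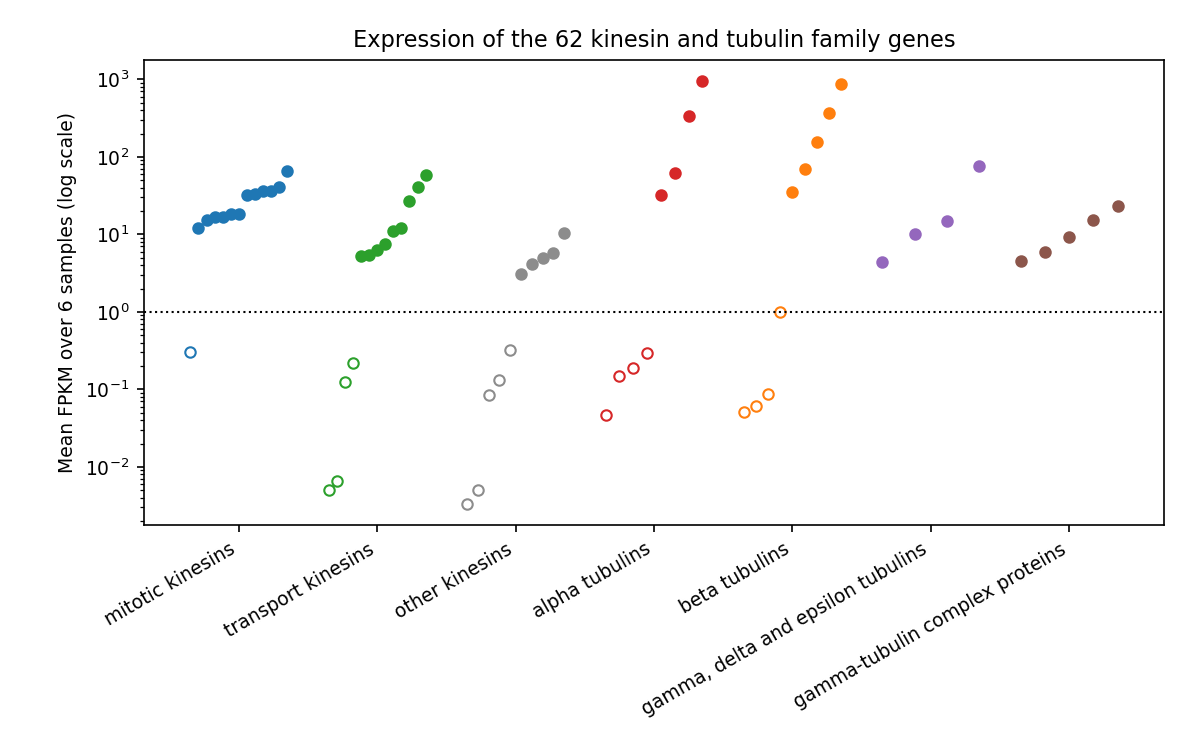
Mean FPKM over 6 samples (y axis, log scale) of each of the 62 genes, grouped by class along the x axis and sorted within a class. Filled points are the 44 genes that were tested, open points the 18 under a mean FPKM of 1 (dotted line), and alpha and beta tubulins reach the highest values.

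The question asked of these genes was whether their RNA differed between BR-shSPANXB1 and BR-shCON cells. The 44 members with a mean FPKM of at least 1 went into edgeR's quasi-likelihood test on the counts, with adjustment over all 11439 genes that reached this level. At an adjusted p under 0.05, 9 members were higher in BR-shSPANXB1 cells and none was lower. These were the mitotic kinesins KIF2C, KIF23 and KIF14, the transport kinesins KIF3C and KIF13B, the alpha tubulins TUBA4A and TUBA1A, and the beta tubulins TUBB4B and TUBB3. Over all genes tested, 13.8% passed, 6.82% higher and 6.98% lower, while 20.5% of the members passed. DESeq2 called 8 members (8.92% of all genes) and limma on log2(FPKM + 0.1) called 6 (7.57% of all genes), again none of them lower. None had an unadjusted p under 0.05 as lower, where 13.4% of all genes did. In the other direction 13 of the 44 tested members had an unadjusted p under 0.05, against 13.4% of all genes.

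The changes were small. The log2 fold changes of the 44 members ran from -0.11 to 0.35 with a median of 0.05, beside a median of 0.00 over all genes tested, and 31 of 44 were above 0. None reached the criteria the study set for a changed gene, a log2 fold change over 0.59 among them, which 0.621% of the genes tested met. In FPKM the groups did not overlap for 15 of the 44 members, 14 of them higher in BR-shSPANXB1 cells, beside 28.6% of all genes (16.9% higher). With the replicate number as a block, 16 members passed as higher and none as lower, beside 25.7% of all genes in either direction (12.7% higher). Without single libraries the count lay between 6 and 8, and that of all genes between 1041 and 1466 of 11439.

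**Figure D2:**
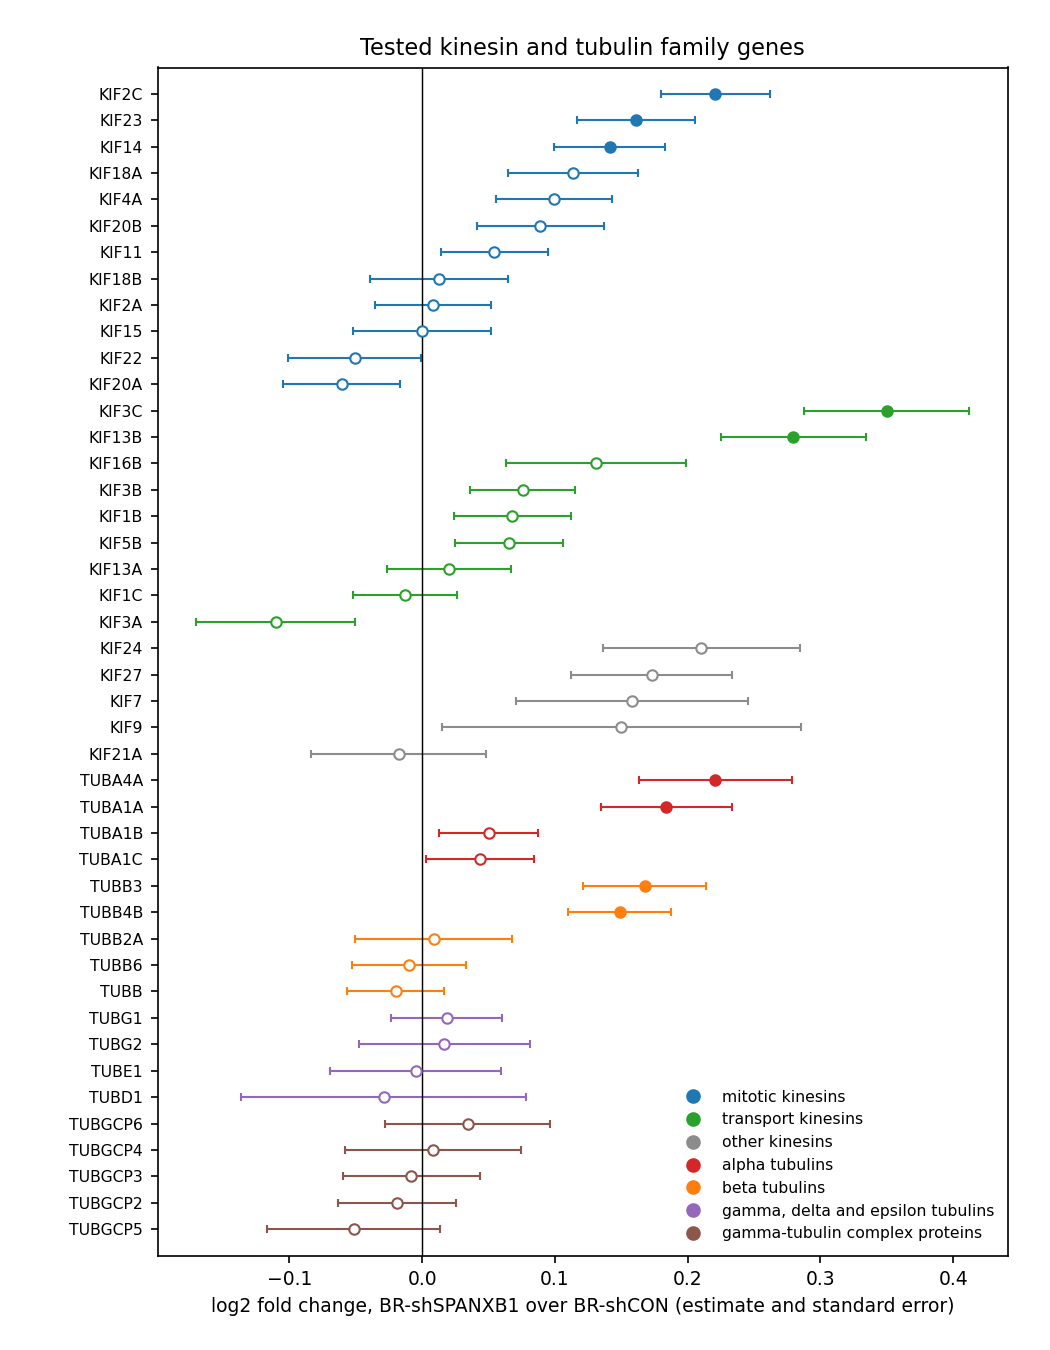
Log2 fold change from BR-shCON to BR-shSPANXB1 cells (x axis) with its standard error (bars) for the 44 tested genes, coloured by class. Filled points passed the test, and all 9 of these lie to the right of 0, between 0.14 and 0.35.

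**Figure D3:**
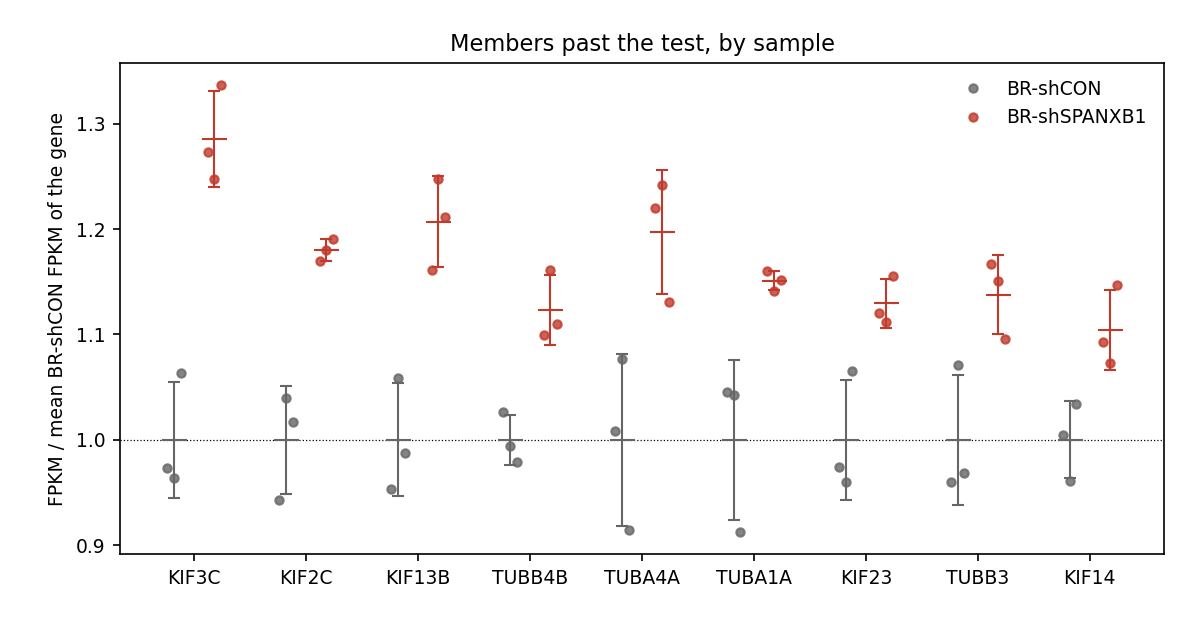
FPKM of each sample divided by the mean of the BR-shCON samples (y axis) for the 9 genes past the test, with dots for samples and horizontal ticks and bars for mean ± SD (n = 3). In each gene all BR-shSPANXB1 samples lie above all BR-shCON samples.

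Genes of mitosis often carry CCAAT boxes and the CHR element, whose core letters are TTTGAA, near their start. Promoter sequences were taken from RefSeq (GRCh38.p14), which had an entry for 56 of the 62 members, and the 250 bases upstream of the start were searched on both strands for TTTGAA and for CCAAT, which share no bases in any match shown here. The stretches shown are for the 3 mitotic kinesins past the test and for the beta tubulin TUBB4B, read on the strand of the gene from 5′ to 3′, with both motifs in capitals (ATTGG is CCAAT on the opposite strand). They end where GENCODE v29 starts the gene if that lies upstream, except for KIF23, whose motifs lie upstream of the RefSeq start but within the gene as GENCODE v29 draws it, and of which only the bases around them are shown.
KIF2C, chr1:44739587-44739817, plus strand: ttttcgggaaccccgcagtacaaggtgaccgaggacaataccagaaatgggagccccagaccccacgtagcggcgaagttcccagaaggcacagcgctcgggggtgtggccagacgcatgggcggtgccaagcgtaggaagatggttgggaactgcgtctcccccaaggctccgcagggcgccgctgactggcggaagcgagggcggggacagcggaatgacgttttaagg
KIF14, chr1:200620752-200621001, minus strand: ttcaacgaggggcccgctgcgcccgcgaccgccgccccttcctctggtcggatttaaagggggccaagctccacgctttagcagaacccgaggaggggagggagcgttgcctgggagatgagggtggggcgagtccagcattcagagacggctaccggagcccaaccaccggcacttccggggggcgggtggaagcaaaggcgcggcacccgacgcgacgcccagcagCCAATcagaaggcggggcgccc
KIF23, chr15:69414279-69414308, plus strand: gcgctgATTGGcccgTTTGAAatgcgccag
TUBB4B, chr9:137241037-137241212, plus strand: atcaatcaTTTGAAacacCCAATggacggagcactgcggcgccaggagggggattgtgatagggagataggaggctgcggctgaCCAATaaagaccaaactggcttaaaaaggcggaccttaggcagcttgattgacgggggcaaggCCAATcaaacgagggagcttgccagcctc

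Distances are counted from the RefSeq start, which for TUBB4B lies downstream of the stretch shown. In KIF23 the TTTGAA letters began 55 bases before the start and the CCAAT letters 64 bases before it, on the opposite strand. TUBB4B held TTTGAA 242 bases and CCAAT 232, 166 and 103 bases before its start. KIF14 held CCAAT alone, 22 bases before the start, and KIF2C held neither in its window. TTTGAA was in the windows of 5 of 12 tested mitotic kinesins (KIF11, KIF15, KIF18A, KIF23 and KIF4A), 1 of 8 transport kinesins and 2 of 13 tubulins, beside 11.9% of 9483 tested genes and 16.1% of all 27305 genes with a promoter. CCAAT was in 9 of the 12 mitotic kinesins, 3 of the 8 transport kinesins and 8 of the 13 tubulins, beside 42.5% of tested genes and 37.0% of all. Of 8 members past the test that had a promoter entry, 2 held TTTGAA and 5 held CCAAT, so neither motif was common to all of them. A match of so few letters is a description and no site.

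Among mitotic kinesins, 3 of 12 tested genes rose and none fell, beside 6.82% of all genes that rose and 6.98% that fell. In bulk samples such as these, more cells in mitosis and more RNA per cell cannot be told apart. KIF2C encodes a kinesin that does not walk but takes tubulin off microtubule ends, and so corrects faulty attachments of chromosomes to the spindle. Its FPKM was 56.4, 62.3 and 60.9 over the BR-shCON samples and 70.0, 70.6 and 71.3 over those with the shRNA. The lowest BR-shSPANXB1 sample was well above the highest BR-shCON sample, and the BR-shSPANXB1 samples were close together. The log2 fold change was 0.22 (SE 0.04, edgeR adjusted p = 4.0e-04), and it passed without any 1 library, with an adjusted p of at most 0.0065.

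KIF23 encodes a motor of the central spindle that is needed for cytokinesis. It was at 32.9, 32.4 and 35.9 FPKM across BR-shCON samples, against 37.8, 37.5 and 39.0 after knockdown. All BR-shSPANXB1 samples were higher, although the third BR-shCON sample came within the spread of its group of them. The log2 fold change was 0.16 (SE 0.04, edgeR adjusted p = 0.014). This call was lost when replicate 1 (adjusted p = 0.055) or 2 (0.099) of BR-shCON or replicate 3 of BR-shSPANXB1 (0.060) was left out. KIF14, a further motor of cytokinesis, was at 15.9, 15.2 and 16.4 FPKM over the BR-shCON samples and 17.3, 17.0 and 18.1 over those with the shRNA. Its groups did not overlap, with the third sample highest in each. The log2 fold change was 0.14 (SE 0.04, edgeR adjusted p = 0.023), and the call was lost without the same 3 libraries (adjusted p = 0.063, 0.11 and 0.12) and by DESeq2 (adjusted p = 0.053). Limma on log2(FPKM + 0.1) called neither KIF23 (limma adjusted p = 0.056) nor KIF14 (0.12).

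When 1 of these 3 libraries was left out (replicate 1 or 2 of BR-shCON or replicate 3 of BR-shSPANXB1), only KIF2C of the mitotic kinesins passed, so the count of 3 was then 1. Without replicate 3 of BR-shCON it was 4, as KIF20B passed too (adjusted p = 0.030). When replicates were blocked the count was 6, since KIF18A, KIF4A and KIF20B passed as well. KIF18A, which shortens and steadies the microtubules that hold chromosomes, was at 18.0, 17.5 and 17.7 FPKM across BR-shCON samples, against 19.3, 19.3 and 19.7 after knockdown. These groups did not overlap either (log2 fold change 0.11, edgeR adjusted p = 0.13, and 0.042 with the block). KIF4A, a chromosome-bound motor, had a log2 fold change of 0.10 (edgeR adjusted p = 0.13, and 0.011 with the block), and KIF20B, a motor of late cytokinesis, one of 0.09 (0.24, and 0.046 with the block). The groups of both overlapped in FPKM.

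The other 6 tested mitotic kinesins did not pass in either fit. KIF20A, a motor of the midzone, was the second most abundant of the class and had FPKM values of 42.2, 43.5 and 39.7 over the BR-shCON samples and 39.5, 42.2 and 39.7 over those with the shRNA. KIF22, which binds chromosome arms, was at 39.0, 38.3 and 35.0 across BR-shCON samples, against 36.1, 36.5 and 36.04 after knockdown. Both overlapped between the groups, with log2 fold changes of -0.06 (SE 0.04) and -0.05 (SE 0.05). KIF11, the motor that pushes spindle poles apart and the target of several antimitotic compounds, had a log2 fold change of 0.05 (SE 0.04, edgeR adjusted p = 0.42). KIF15, KIF18B and KIF2A lay between 11.7 and 18.8 FPKM in each sample. KIF4B, an intronless relative of KIF4A with counts of 10, 17 and 17 over the BR-shCON samples and 27, 31 and 20 over those with the shRNA, was too low to be tested, and passed with an adjusted p of 0.046 where no limit on FPKM was set. Of its 100-base windows, 2.10% also occur in KIF4A, and reads of those windows cannot be told apart.

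Among transport kinesins, 2 of 9 tested genes rose and none fell, beside 6.82% of all genes that rose and 6.98% that fell. The 2 had the largest fold changes of the 44 tested members. KIF3C is one of the kinesin-2 motors, and it can pair with KIF3A, as KIF3B does, to form motors that carry vesicles and, in the case of KIF3A and KIF3B, build cilia. Its FPKM was 5.38, 5.33 and 5.88 across BR-shCON samples, against 7.04, 6.90 and 7.39 after knockdown. Every BR-shSPANXB1 sample was above every BR-shCON sample by more than the spread within the groups. The log2 fold change was 0.35 (SE 0.06, edgeR adjusted p = 2.3e-04), from counts of 451 to 621 per sample.

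Neither KIF3A, the partner of KIF3C, nor KIF3B passed the test. KIF3A was at 7.48, 7.95 and 8.13 FPKM over the BR-shCON samples and 6.83, 7.37 and 7.36 over those with the shRNA. It was the 1 tested member whose groups lay apart in FPKM with BR-shSPANXB1 cells lower. In counts scaled by library size its groups overlapped, and its difference missed the threshold (log2 fold change -0.11, SE 0.06, edgeR adjusted p = 0.24). KIF3B was at 25.9, 26.6 and 26.4 FPKM across BR-shCON samples, against 28.1, 28.5 and 27.2 after knockdown. Its groups did not overlap, with BR-shSPANXB1 cells higher by a log2 fold change of 0.08 (SE 0.04, edgeR adjusted p = 0.22, and 0.049 with the block).

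KIF13B, a motor that carries membrane cargo and binds the scaffold protein DLG1, was at 4.55, 5.05 and 4.71 FPKM over the BR-shCON samples and 5.54, 5.95 and 5.78 over those with the shRNA. The groups lay apart, and the lowest BR-shSPANXB1 sample was above the highest BR-shCON sample. The log2 fold change was 0.28 (SE 0.05, edgeR adjusted p = 6.8e-04). KIF3C and KIF13B passed without any 1 library, with adjusted p-values of at most 0.0026 and 0.0062. KIF13A, the closest relative of KIF13B, was at a mean of 12.1 FPKM in both groups.

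The abundant transport kinesins did not pass the test. KIF5B, the heavy chain of conventional kinesin in most cells, was at 55.8, 54.4 and 59.8 FPKM across BR-shCON samples, against 60.4, 57.7 and 61.2 after knockdown. The groups overlapped, and the log2 fold change of 0.07 (SE 0.04) had an edgeR adjusted p of 0.32, or 0.048 with the block. KIF1C, a fast motor of vesicles and messenger RNA, was at 41.6, 41.7 and 39.4 FPKM over the BR-shCON samples and 40.5, 41.3 and 39.8 over those with the shRNA, with overlap. KIF1B and KIF16B, motors of mitochondria and of endosomes, had log2 fold changes of 0.07 (SE 0.04) and 0.13 (SE 0.07), neither past the test. KIF17 and KIF5C were under an FPKM of 0.5 in each sample. With the block 4 transport kinesins passed, which were KIF3C, KIF13B, KIF3B and KIF5B.

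None of the 5 tested kinesins outside these classes passed, by edgeR, DESeq2 or limma, although 2 had an unadjusted p under 0.05 and both were higher. KIF24, which acts at the mother centriole and holds back cilium formation, was at 2.96, 2.84 and 2.84 FPKM across BR-shCON samples, against 3.35, 3.33 and 3.40 after knockdown. KIF27, a relative of KIF7 that is tied to motile cilia, was at 5.53, 4.85 and 5.56 over the BR-shCON samples and 6.35, 6.17 and 5.92 over those with the shRNA. The groups of both lay apart, with log2 fold changes of 0.21 (SE 0.07) and 0.17 (SE 0.06). Their edgeR adjusted p-values were 0.058 and 0.055, and 0.023 and 0.013 with the block. KIF7, a regulator of Hedgehog signalling at the cilium tip, had a log2 fold change of 0.16 (SE 0.09, edgeR adjusted p = 0.25). KIF21A, a motor that slows microtubule growth, was at 4.81, 4.74 and 5.46 FPKM across BR-shCON samples, against 5.0, 4.92 and 5.06 after knockdown, with overlap. KIF9, a motor of motile cilia, was at 9.74, 11.5 and 9.84 FPKM over the BR-shCON samples and 9.59, 12.6 and 10.1 over those with the shRNA, also with overlap. Its counts were only 84 to 118 per sample, which implies an effective length of 515 to 576 bases, shorter than that of any other tested member, so its FPKM rests on few reads.

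Of the alpha tubulins, 2 of 4 tested genes rose, beside 6.82% of all genes tested, and both were minor isotypes. TUBA4A is best known from muscle, platelets and brain, and its gene encodes no terminal tyrosine. It was at 29.9, 31.9 and 27.1 FPKM across BR-shCON samples, against 36.1, 36.8 and 33.5 after knockdown. TUBA1A, the main isotype of young neurons, was at 60.3, 60.1 and 52.6 over the BR-shCON samples and 66.9, 65.8 and 66.4 over those with the shRNA. In both genes the groups did not overlap, and the third BR-shCON sample was the lowest of the 6. The log2 fold changes were 0.22 (SE 0.06, edgeR adjusted p = 0.0096) for TUBA4A and 0.18 (SE 0.05, edgeR adjusted p = 0.011) for TUBA1A. Without BR-shCON replicate 3 neither passed, with adjusted p-values of 0.052 and 0.078, and without BR-shSPANXB1 replicate 2 TUBA4A did not pass (0.053).

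TUBA1B, the major isotype, had the FPKM values given above, and each BR-shSPANXB1 sample was higher than each BR-shCON sample, with a log2 fold change of 0.05 (SE 0.04, edgeR adjusted p = 0.42). TUBA1C, the second in abundance, was at 352, 323 and 330 FPKM across BR-shCON samples, against 343, 352 and 324 after knockdown, with overlap. TUBA3D, TUBA4B, TUBA8 and TUBAL3 were under an FPKM of 0.5 in each sample.

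Of the beta tubulins, 2 of 5 tested genes rose, beside 6.82% of all genes tested. TUBB4B, an isotype of many tissues and of cilia, was at 356, 345 and 340 FPKM over the BR-shCON samples and 381, 403 and 385 over those with the shRNA. TUBB3 was at 62.9, 70.1 and 63.4 across BR-shCON samples, against 76.4, 75.4 and 71.7 after knockdown. The groups lay apart for TUBB4B, while for TUBB3 the second BR-shCON sample came close to the lowest BR-shSPANXB1 sample. The log2 fold changes were 0.15 (SE 0.04, edgeR adjusted p = 0.0092) for TUBB4B and 0.17 (SE 0.05, edgeR adjusted p = 0.014) for TUBB3. TUBB4B did not pass without replicate 2 of BR-shCON (adjusted p = 0.052) or of BR-shSPANXB1 (0.073). TUBB3 did not pass without BR-shCON replicate 1 (0.072), BR-shSPANXB1 replicate 1 (0.068) or BR-shSPANXB1 replicate 2 (0.057). Limma on log2(FPKM + 0.1) did not call TUBB3 either (limma adjusted p = 0.051). Over all tubulins, the count of 4 past the test was 2 without the third BR-shCON sample, 1 without replicate 2 of BR-shSPANXB1 and 4 with the block.

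In counts scaled by library size the groups of TUBB lay apart, with BR-shSPANXB1 cells lower. Its FPKM values, given above, overlapped between the groups. The log2 fold change was -0.02 (SE 0.04, edgeR adjusted p = 0.78). TUBB6, an isotype of many cell types, was at 162, 157 and 145 FPKM over the BR-shCON samples and 155, 161 and 150 over those with the shRNA, also with overlap. TUBB2A, close to TUBB2B in sequence, was at 32.3 to 36.6 FPKM in all samples. TUBB1, the isotype of platelets, and TUBB8, that of the oocyte, were at 0.12 FPKM or less in each sample, as was TUBB8B.

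As a share of the summed FPKM of the beta tubulins, TUBB was at 58.3%, 58.7% and 59.9% across BR-shCON samples, against 56.9%, 56.0% and 57.5% after knockdown. TUBB4B was at 24.0%, 23.4% and 23.4% over the BR-shCON samples and 25.3%, 26.2% and 25.5% over those with the shRNA. The share of TUBB was thus lower and that of TUBB4B higher in every BR-shSPANXB1 sample, although the level of TUBB did not pass the test. Of the alpha tubulins, TUBA1B made up 68.7% ± 0.715 in control and 68.8% ± 0.539 in knockdown samples (SD, n = 3 in each group). TUBA1A held 4.26% ± 0.264 in control and 4.69% ± 0.105 in knockdown samples, and TUBA4A held 2.19% ± 0.165 and 2.50% ± 0.0755. The summed FPKM of control and knockdown samples was 1352 ± 25.5 and 1416 ± 27.9 for alpha tubulins, and 1468 ± 17.4 and 1518 ± 17.3 for beta tubulins. These sums hold mainly TUBA1B and TUBB and are given as a description.

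Tubulin genes are alike in sequence, so reads may have been assigned to the wrong isotype. The transcripts of GENCODE v29 were therefore cut into windows of 100 bases, and the windows that also occur in another gene, on either strand, were counted. For TUBB2A 48.9% of windows were shared, mostly with TUBB2B, and for TUBA1A 17.7%, all with other alpha tubulins. TUBA1A (chr12:49184796-49189324, minus strand) and TUBA1C (chr12:49188736-49274603, plus strand) also overlap at their starts on opposite strands of GRCh38, and no step of the library protocol in the labels marks strand. When counts of TUBA1A, TUBA1B and TUBA1C were summed, the log2 fold change was 0.05 (SE 0.04, edgeR adjusted p = 0.39), a sum that is mostly TUBA1B. Whether reads were moved between these genes was not tested.

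For the other tubulins past the test, sharing with members was low. Of the windows of TUBB3 (chr16:89921392-89938761, plus strand), 29.7% were shared, mostly with a read-through transcript of the same locus. Of those of TUBA4A (chr2:219249711-219278170, minus strand), 13.6% were shared, mostly with the neighbour STK16. TUBB4B (chr9:137241213-137243707, plus strand) shared 3.27%, of which 2.09% was with TUBB2A and TUBB2B. The kinesins past the test shared little, from none in KIF3C (chr2:25926596-25982749, minus strand) and KIF14 (chr1:200551497-200620734, minus strand) to 1.07% in KIF2C (chr1:44739818-44767767, plus strand), 1.66% in KIF23 (chr15:69414246-69448427, plus strand) and 4.21% in KIF13B (chr8:29067279-29263124, minus strand).

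The remaining tubulins did not pass. TUBG1, the gamma-tubulin of the centrosome, was at 76.1, 75.7 and 72.6 FPKM across BR-shCON samples, against 77.2, 75.7 and 76.4 after knockdown. TUBE1, a tubulin of the centriole, was at 14.7, 14.1 and 15.4 over the BR-shCON samples and 14.8, 14.3 and 15.4 over those with the shRNA. TUBG2 was at 9.88, 10.1 and 9.57 across BR-shCON samples, against 9.91, 11.2 and 9.72 after knockdown. TUBD1, also of the centriole, ran from 3.85 to 4.98 over all samples. The groups of all 4 genes overlapped, and their log2 fold changes lay between -0.03 and 0.02. None of these genes, nor of the 5 gamma-tubulin complex proteins, had an unadjusted p under 0.05 by edgeR, and DESeq2 and limma called none. TUBD1 had the largest standard error of the 4, at 0.11, so a difference of the size seen in TUBB4B was not detectable there.

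The most abundant gamma-tubulin complex protein, TUBGCP2, was at 23.2, 23.6 and 22.1 FPKM over the BR-shCON samples and 22.8, 23.1 and 22.7 over those with the shRNA. TUBGCP3, which with TUBGCP2 forms the core of the complex, was at 14.6, 15.4 and 15.5 across BR-shCON samples, against 14.8, 16.4 and 14.7 after knockdown. Both overlapped between the groups. TUBGCP5, a further part of the ring, gave different directions in counts and in FPKM. Its counts were 449, 420 and 442 over the BR-shCON samples and 425, 431 and 415 over those with the shRNA, with overlap and a log2 fold change of -0.05 (SE 0.07, edgeR adjusted p = 0.66). Its FPKM values were 9.47, 7.58 and 8.01 across BR-shCON samples, against 11.95, 10.91 and 7.54 after knockdown, of which BR-shSPANXB1 replicates 1 and 2 were the highest and replicate 3 the lowest. On the log2(FPKM + 0.1) scale the change was 0.26 (limma adjusted p = 0.35). The effective length that each FPKM implies was 2884, 3353 and 3331 bases in BR-shCON and 2183, 2370 and 3341 bases in BR-shSPANXB1 cells. This length is computed from the count and the FPKM, so it restates how the 2 differ. Why they differ was not tested. No other tested member differed by more than 0.1 between the log2 fold changes from counts and from FPKM, and 2.46% of all genes tested did.

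**Figure D4:**
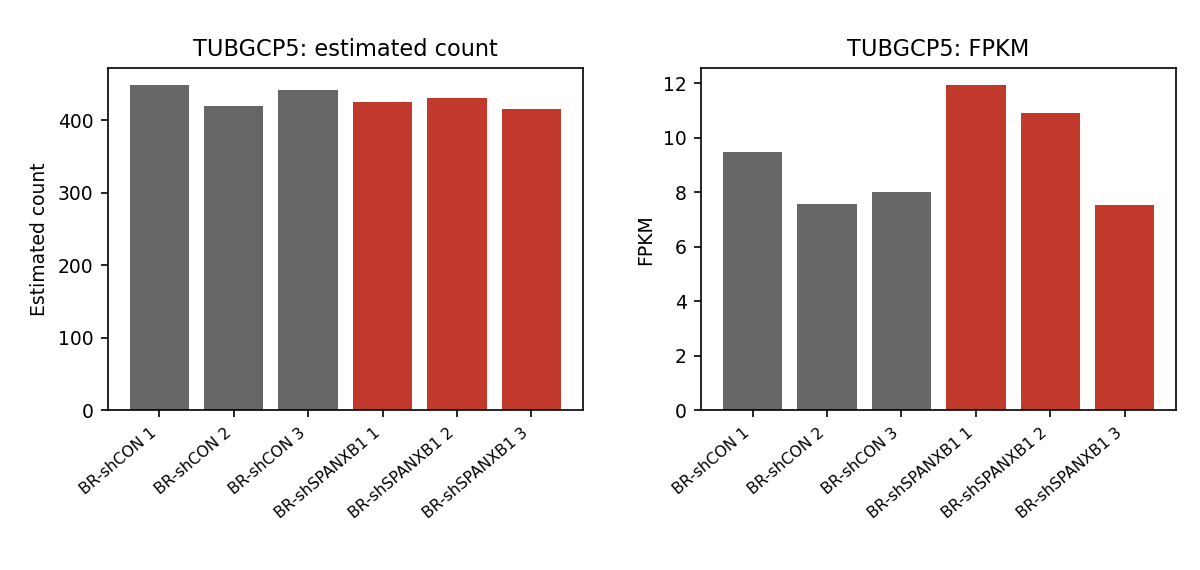
Estimated count (left) and FPKM (right) of TUBGCP5 in each of the 6 samples, as bars from 0, with BR-shCON in grey and BR-shSPANXB1 in red. Counts run from 415 to 449, while FPKM is highest in BR-shSPANXB1 replicates 1 and 2 and lowest in BR-shSPANXB1 replicate 3.

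Genes that work with kinesins and tubulins were then described from lists chosen by function, beside the 13.8% of all genes that passed. Since the lists were chosen with earlier results of these data known, their shares are a description. Of 9 tested kinesin partners and kinesins with other names, 3 rose and none fell, namely CENPE, a kinetochore motor, KLC1, a light chain of conventional kinesin, and KIFC2, a kinesin with its motor at the C-terminal end. KLC1 went from an FPKM of 67.5 ± 2.40 to 73.2 ± 0.381 (log2 fold change 0.12, edgeR adjusted p = 0.027). CENPE went from 10.97 ± 0.800 to 12.3 ± 0.439 (0.16, adjusted p = 0.027), and KIFC2 from 10.02 ± 1.00 to 11.4 ± 0.374 (0.20, adjusted p = 0.04996). DESeq2 called 1 of them and limma none, and without single libraries the count was 0 to 3. At an unadjusted p under 0.05, 4 were higher and 1 was lower, and with the block 4 rose and 1 fell.

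Of 20 tested genes of dynein and dynactin, the motor that walks toward the centrosome, none passed by edgeR, DESeq2 or limma, while 3 had an unadjusted p under 0.05, all higher, and 2 passed with the block. Of 21 tested genes of tubulin folding, 1 rose, the prefoldin subunit PFDN4, from 30.5 ± 1.21 to 36.4 ± 0.405 FPKM (log2 fold change 0.23, edgeR adjusted p = 0.0092), and none fell. In that list 2 were lower and 2 higher at an unadjusted p under 0.05, and the same numbers passed with the block. The chaperonin subunits CCT2 and CCT4, at -0.10 and -0.08 on the log2 scale, did not pass (edgeR adjusted p = 0.081 and 0.15).

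Among 15 tested enzymes that modify tubulin, 2 rose and none fell, and none was lower at an unadjusted p under 0.05. VASH1, which removes the last tyrosine of alpha-tubulin, was low, at 1.44, 1.34 and 1.42 FPKM over the BR-shCON samples and 1.87, 2.01 and 1.92 over those with the shRNA. Its groups lay apart, and its log2 fold change of 0.49 (SE 0.10, edgeR adjusted p = 0.0014) was above that of each tested member. HDAC6, the tubulin deacetylase, went from 11.1 ± 0.212 to 12.7 ± 0.743 FPKM (0.19, SE 0.06, edgeR adjusted p = 0.023). Of 12 tested genes of microtubule stability and severing, MAP1B, a microtubule-binding protein of neurons that BR cells also express, rose by a log2 fold change of 0.17 (edgeR adjusted p = 0.0030). TTC5, which takes part in the decay of tubulin messenger RNA when free tubulin is abundant, went from 6.29 ± 0.319 to 5.48 ± 0.240 FPKM (-0.21, SE 0.07, edgeR adjusted p = 0.037). The median log2 fold change of the stability and severing list was -0.04, with 5 of 12 above 0. At an unadjusted p under 0.05, 1 was higher and 2 were lower, and the same numbers passed with the block. Without single libraries, VASH1 and MAP1B passed each time, with adjusted p-values of at most 0.011 and 0.023, while HDAC6, TTC5 and PFDN4 reached 0.11, 0.14 and 0.056.

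Of 22 tested genes of the spindle and of mitosis, 7 rose and none fell, or 31.8%. The kinase of the spindle checkpoint BUB1 was at 57.2, 55.4 and 59.6 FPKM across BR-shCON samples, against 65.2, 66.5 and 67.8 after knockdown, groups that lay apart, with a log2 fold change of 0.20 (SE 0.04, edgeR adjusted p = 8.3e-04). TOP2A, which untangles DNA, CENPF, a kinetochore protein, and CCNB1, the cyclin of mitotic entry, had log2 fold changes of 0.18, 0.16 and 0.15 (edgeR adjusted p = 0.0055, 0.0067 and 0.015). PRC1, INCENP and BIRC5 made up the rest. In this list the median change was 0.05 on the log2 scale, with 19 of 22 above 0, beside 0.07 in the mitotic kinesins, with 9 of 12 above 0. DESeq2 called 5 and limma 3 of the 22, the count without single libraries was 3 to 6, and 1 gene was lower at an unadjusted p under 0.05. With the block 9 rose and 1 fell.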

How the data were processed

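RNA of 3 BR-shCON and 3 BR-shSPANXB1 samples was purified with oligo(dT) beads and read as paired ends. Groups and replicate numbers follow the titles, while the extraction text in the labels names the parental lines without the knockdown. The authors deposited estimated counts, not normalized, and FPKM values, scaled by transcript length and mapped fragments, for 16570 genes. The build GRCh38.p12 and the tools Bowtie2 2.2.5 and HISAT2 2.0.4 stand in the submitters' processing notes. Which program counted the reads, and on which annotation, is not given in sources used here. Of the values deposited, only the estimated counts and FPKM of each sample were used.

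Counts, of which 14.45% were not whole, were rounded and tested with edgeR 4.0.16 in R 4.3.3 (TMM scaling, robust quasi-likelihood, Benjamini-Hochberg) over the 11439 genes whose FPKM averaged at least 1. The biological coefficient of variation was 0.0339. Alternatives used DESeq2 1.42.0, limma 3.58.1 on log2(FPKM + 0.1) or log2(FPKM + 1), quantile normalization, other size factors, other FPKM limits, a replicate block, summed tubulins and leaving out each sample. The fit was tested on simulated data. Samples that carry the same number deviated together from their groups (correlations of 0.1127, 0.1502 and 0.1592 across genes), so a fit with the number as a block is given beside the unblocked test, which gives the p-values unless the block is named; no source says what a number shares. Counts differed more between than within groups (chi-square per degree of freedom of 6.87 to 9.45 against 2.10 to 3.31), and no 2 samples agreed within counting noise.

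The members, classes and related lists were chosen with earlier results of these data known. Any member could be named, with values in each sample for those past the test and the 3 highest of each class, and up to 4 tested genes with the smallest p of each related list; PRC1, INCENP and BIRC5 were named after their values were seen. KIF24, KIF18A, KIF3A and KIF4B, outside this rule, were given by sample after their values were seen. Positions are from GENCODE v29 (GRCh38). Figures were drawn with matplotlib 3.10.9.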

Additional observations from a re-analysis of the deposited data

How the results depend on the processing

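The 9 members past the test were 4 after quantile normalization and 16 with the replicate block, and 6 to 8 when 1 sample was left out. With no limit on FPKM, 10 of 62 passed. The share of all genes that passed is not given for quantile normalization, limma on log2(FPKM + 1) or the fit without a limit on FPKM. The counts under those settings therefore have no background beside them. The 3 mitotic kinesins were 1 with limma on log2(FPKM + 0.1), 1 with limma on log2(FPKM + 1), 1 after quantile normalization, 6 with the replicate block and 1 to 4 without single samples. The 2 transport kinesins were 1 after quantile normalization, 4 with the replicate block and 2 without any single sample. The 4 tubulins were 2 after quantile normalization and 1 to 4 without single samples. No member passed as lower in any of these settings. SPANXB1 fell in each, by -1.16 to -1.06 on the log2 scale without single samples. TUBGCP5 turned direction on FPKM values, to 0.26 with limma on log2(FPKM + 0.1), 0.23 with limma on log2(FPKM + 1) and 0.24 after quantile normalization. Over 27 of the named members and their settings, 339 of 377 values kept their direction and side of the threshold, 27 lost the call, 8 gained it and 3 turned. Some members outside this tally also changed sign, close to 0. TUBA1C went from 0.04 with edgeR to -0.004 after quantile normalization, and KIF21A ran from -0.06 to 0.05 without single samples. The cause of these changes was not tested. The block changed no call of the tubulins.

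Precision rests on 3 samples per group, so an exact permutation test of 1 gene cannot give a p under 0.1. Genes of few counts, such as KIF9 and KIF4B, are also limited by counting error, and tubulin counts by how reads of near-identical genes were assigned, on which no source used here is informative.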
